A study of Mus musculus with 9 samples.

Results

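Restriction factors are host proteins that act against viruses and mobile elements inside the cell, and 8 of their genes are described here among the 19505 genes measured: Apobec3, Apobec1, Bst2, Ifitm1, Ifitm2, Ifitm3, Samhd1 and Trim30a. The members were chosen by their symbol in the platform annotation. The only measured value in that choice is the mean signal over all 9 arrays, which selects 1 feature where a gene has several, and each of the 8 genes had 1 feature. No difference between groups enters it, but the 8 genes were put together with earlier results of these data known. Their p-values are therefore given as values of the fit over all genes and not as independent support for the choice.

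The samples were 9 RNA preparations of GFP-labelled 3LL cells, the mouse Lewis lung carcinoma (LLC) line, with C57/BL6 mice given as the strain. The dish group (3 samples) held cells cultured as a monolayer for 7 days. The subcutaneous group (3 samples) held GFP-positive cells isolated 7 days after transplantation under the skin, and the lung group (3 samples) GFP-positive cells isolated 7 days after transplantation into the lung. All groups carry the same GFP-labelled line, so the data describe 1 tumour line, and the labels do not say whether replicates were separate mice or separate cultures. An isolation step is named for both transplanted groups and not for the dish group, so transplantation and isolation cannot be told apart. GFP itself was not analysed here. The p-values therefore reflect replicate spread that may be technical only.

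Cells defend themselves against viruses and mobile elements with proteins that act at separate steps of the infection cycle. Cytidine deaminases of the APOBEC family edit nucleic acids, tetherin (the product of Bst2) holds budding particles at the cell surface, IFITM proteins hinder the fusion of viral with cellular membranes, and SAMHD1 breaks down the deoxynucleotides that reverse transcription needs. Many of these genes are switched on by interferons through transcription factors that bind a promoter element called the interferon-stimulated response element (ISRE).

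Values are log2 signals of a 1-colour array, as deposited, and are given as mean ± SD with n = 3 per group. The background of each array was set at the 90th percentile of its negative control features (7.20 to 7.73), and signals below it are called not well above background. Over the 9 arrays 28% to 34.4% of genes lay above this level. Differences are in log2 units and were tested with limma, with Benjamini-Hochberg adjustment over the 19505 genes. "Rose" and "fell" are used for an adjusted p under 0.05. The array number limits the precision, at 3 per group.

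The promoters of the members are shown first because the ISRE is the element through which interferons act on such genes. A table of RefSeq promoters (GRCm38.p6, 250 bases before to 50 after each start) held 10 promoters for the 8 genes. The ISRE core was searched as GAAA, any 2 bases and GAAA on both strands, and 6 of the 10 promoters, from 5 of the 8 genes, held it, against 3.44% of all 32851 promoters in the table. Below are bases -160 to -11 before the start of 4 members, with ISRE core letters in capitals. The 4 are the member promoters with an ISRE core inside these bases, so the display was selected on the core. Of these members, Apobec3 and Bst2 differed most in signal between groups. Ifitm2 was bright on every array, and Trim30a was under background on every array.
Apobec3 (chr15:79892248-79892397, + strand): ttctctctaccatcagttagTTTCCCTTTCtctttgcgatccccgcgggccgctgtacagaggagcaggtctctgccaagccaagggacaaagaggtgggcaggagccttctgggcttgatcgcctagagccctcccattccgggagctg
Bst2 (chr8:71537483-71537632, - strand): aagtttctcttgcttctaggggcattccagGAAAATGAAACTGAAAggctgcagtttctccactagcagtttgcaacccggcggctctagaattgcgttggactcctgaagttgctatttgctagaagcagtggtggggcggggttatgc
Ifitm2 (chr7:140955972-140956121, - strand): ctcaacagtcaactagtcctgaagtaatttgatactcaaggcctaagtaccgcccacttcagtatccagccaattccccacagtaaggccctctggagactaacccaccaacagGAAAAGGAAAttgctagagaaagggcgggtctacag
Trim30a (chr7:104465204-104465353, - strand): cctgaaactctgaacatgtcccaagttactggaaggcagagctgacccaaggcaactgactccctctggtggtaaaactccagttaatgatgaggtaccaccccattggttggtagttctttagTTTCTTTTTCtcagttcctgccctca

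In Apobec3 the core lies on the opposite strand at bases -140 to -131, and a promoter listed for a further Apobec3 start held none. Bst2 holds 2 copies that overlap, at -130 to -121 and -124 to -115, and the first of them also overlaps the single match (-136 to -128) of the interferon-gamma activated sequence (GAS), searched as TTCNNNGAA on both strands. Ifitm2 holds 1 ISRE core at -46 to -37. Trim30a holds 1 on the opposite strand at -36 to -27, and another of its listed starts, further inside the gene, has the same letters just after it. The Ifitm3 matches, 2 ISRE cores and 1 GAS, lie in the first bases after its start and are not printed. The promoters of Apobec1, Ifitm1 and Samhd1 held no ISRE core, and Samhd1 held 1 GAS match. The GAS was found in 3 of the 10 promoters and in 8.3% of all promoters. Members whose signal rose, members that did not pass the test and a member under background all carry the ISRE letters. A match of letters is a description and not a site.

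Apobec3 encodes the single APOBEC3 enzyme of the mouse, a cytidine deaminase that is packaged into retrovirus particles and restricts murine leukaemia viruses. Its signal in the dish group was 7.76, 8.55 and 6.73 on replicates 1, 2 and 3. In the subcutaneous group it was 13.12, 13.21 and 13.07, and in the lung group 13.02, 13.27 and 12.83. Every transplanted sample stood above every dish sample, and the subcutaneous and lung samples overlapped. On the dish arrays Apobec3 was close to background, above it on replicates 1 and 2 and below it on replicate 3.

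Apobec3 rose by 5.36 in the lung against the dish (SE 0.37, 41.1-fold, limma adjusted p = 5.53e-06). Under the skin it rose by 5.46 against the dish (SE 0.37, 43.9-fold, limma adjusted p = 2.61e-06). Among 19505 genes ordered by their difference from the dish, Apobec3 stood in place 6 from the top in the lung and in place 8 under the skin. Without dish replicate 3, the sample with the lowest value, the rises were 4.89 and 4.98. When signals under background were set to it, an alternative chosen after seeing the data, they were 5.08 and 5.17. Between lung and subcutaneous samples the difference was -0.09 (limma adjusted p = 0.899). Its 95% interval ran from -0.88 to 0.70, so the data allow differences within that range.

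Bst2 encodes tetherin, the membrane protein that ties newly formed enveloped virus particles to the cell that made them. Unlike Apobec3 it was already well above background in culture. Its signal was 12.26, 12.18 and 11.71 on dish replicates 1, 2 and 3, and it was 15.53, 15.57 and 15.66 on the subcutaneous arrays. On the lung arrays it was 15.57, 15.94 and 15.54. The 6 transplanted samples spanned 15.53 to 15.94, and the highest dish sample was at 12.26.

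Bst2 rose by 3.64 in the lung against the dish (SE 0.24, 12.5-fold, limma adjusted p = 4.45e-06) and by 3.54 under the skin against the dish (SE 0.24, 11.6-fold, limma adjusted p = 2.61e-06). It stood in place 16 of the 19505 genes in the lung and in place 36 under the skin. The lung and subcutaneous groups differed by 0.10 (95% interval -0.42 to 0.62, limma adjusted p = 0.831). Both comparisons with the dish use the same 3 dish samples, so their likeness for Apobec3 and Bst2 is not independent evidence. Under each of the 19 alternative settings, both genes kept their calls in both comparisons with the dish, with adjusted p at most 0.000251, and had 0 calls between lung and subcutaneous samples.

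**Figure D1:**
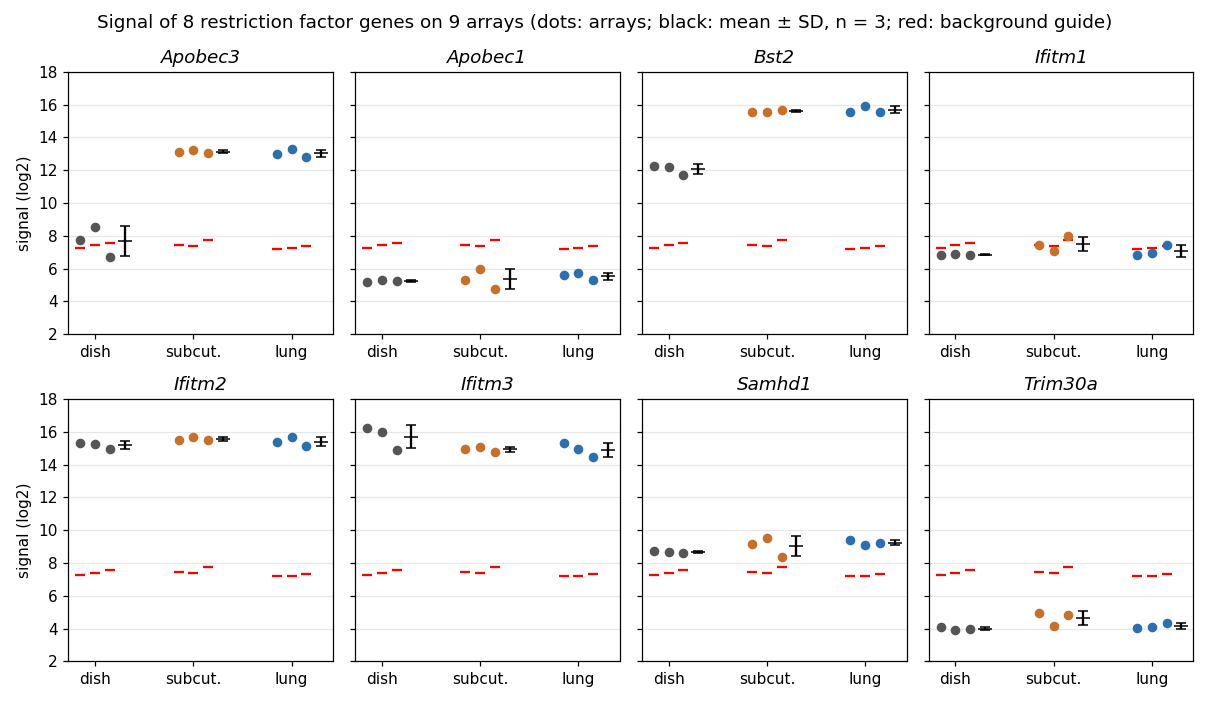
Log2 signal of the 8 restriction factor genes on each array, with a panel per gene and dots for the 3 arrays of each group; the black mark is the mean with its SD (n = 3) and the red ticks are the background guide of each array. Apobec3 and Bst2 are higher on all 6 transplanted arrays than on any dish array, Ifitm2 and Ifitm3 lie far above background everywhere, and Apobec1 and Trim30a lie below it everywhere.

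The IFITM genes encode small membrane proteins that sit at the cell surface or in endosomes and hinder virus entry. Their genes form a cluster of close paralogues, so signal of 1 member could in part come from another. Ifitm2 was at 15.19 ± 0.23 (SD, n = 3) in the dish, 15.55 ± 0.11 under the skin and 15.40 ± 0.26 in the lung. Its differences were 0.22 for lung against dish (95% interval -0.30 to 0.73, limma adjusted p = 0.648) and 0.37 for subcutaneous against dish (95% interval -0.15 to 0.88, limma adjusted p = 0.377). The 3 subcutaneous arrays all lay above the 3 dish arrays for this gene, but the gap was small and did not pass the test.

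Ifitm3, the family member best known for blocking influenza virus entry, was at 16.21, 16.01 and 14.89 on dish replicates 1, 2 and 3. It was at 14.95, 15.10 and 14.78 under the skin and at 15.33, 14.94 and 14.49 in the lung. The transplanted samples thus lay below dish replicates 1 and 2 and around dish replicate 3. The differences from the dish were -0.79 in the lung (SE 0.34, limma adjusted p = 0.195) and -0.76 under the skin (SE 0.34, limma adjusted p = 0.176). Without dish replicate 3 the subcutaneous samples were lower by a called difference (-1.17, limma adjusted p = 0.0289), and the lung difference passed when arrays were scaled to a common upper quartile (-1.13, limma adjusted p = 0.0351). Ifitm3 was thus the 1 bright member whose signal pointed opposite to Apobec3 and Bst2. It had no call in the main fit, and a call appeared only under the settings just named.

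Ifitm1 lay at the background level. Its signal was 6.85 ± 0.01 in the dish, 7.50 ± 0.44 under the skin and 7.07 ± 0.34 in the lung (SD, n = 3), with 0, 2 and 1 arrays above background. The subcutaneous arrays were all above the dish arrays, by 0.65 on average (limma adjusted p = 0.15). The lung arrays overlapped both other groups. At this signal a change of the gene could not be read with confidence.

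Samhd1 encodes the enzyme that hydrolyses deoxynucleotide triphosphates. It was above background on all 9 arrays, at 8.72, 8.67 and 8.59 in the dish, 9.15, 9.55 and 8.36 under the skin, and 9.39, 9.11 and 9.22 in the lung. The lung arrays all stood above the dish arrays, while the subcutaneous arrays spread around both. The differences were 0.58 for lung against dish (95% interval -0.04 to 1.20, limma adjusted p = 0.267), 0.36 for subcutaneous against dish (limma adjusted p = 0.482) and 0.21 for lung against subcutaneous (limma adjusted p = 0.673). None passed, and the intervals allow differences of about 1 in log2 units.

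Apobec1, the deaminase that edits the messenger RNA of apolipoprotein B, was under background on all 9 arrays (4.77 to 6.0). Trim30a, a mouse relative of the retroviral capsid sensor TRIM5, was under background as well (3.89 to 4.94). Neither had a call between groups. Without subcutaneous replicate 2, Trim30a passed between subcutaneous and dish samples (0.89, limma adjusted p = 0.0416), but both of its group means were then still under background.

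Of the 8 genes, then, 2 rose in the lung against the dish and 0 fell, where 6.78% of all genes were called (4.81% rose and 1.97% fell). Under the skin 2 rose and 0 fell, where 12.9% of all genes were called (6.41% rose and 6.47% fell). Between lung and subcutaneous samples 0 of 8 were called by limma, where 15% of all genes were called. At an unadjusted p under 0.05 there were 0 of 8 there, beside 5675 of all 19505 genes. Against the dish 3 members in the lung and 5 under the skin were at that unadjusted p, beside 4271 and 5008 of all genes. Groups did not overlap for 3 members in the lung against the dish (28.4% of all genes), 5 under the skin against the dish (29.3%) and 0 between lung and subcutaneous samples (32.5%). The median difference over the 8 members was 0.25, 0.51 and -0.06 in these comparisons, beside -0.07, -0.01 and -0.07 over all genes. Only 6 of the 8 members were above background on any array, so the medians include 2 that carry little signal.

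**Figure D2:**
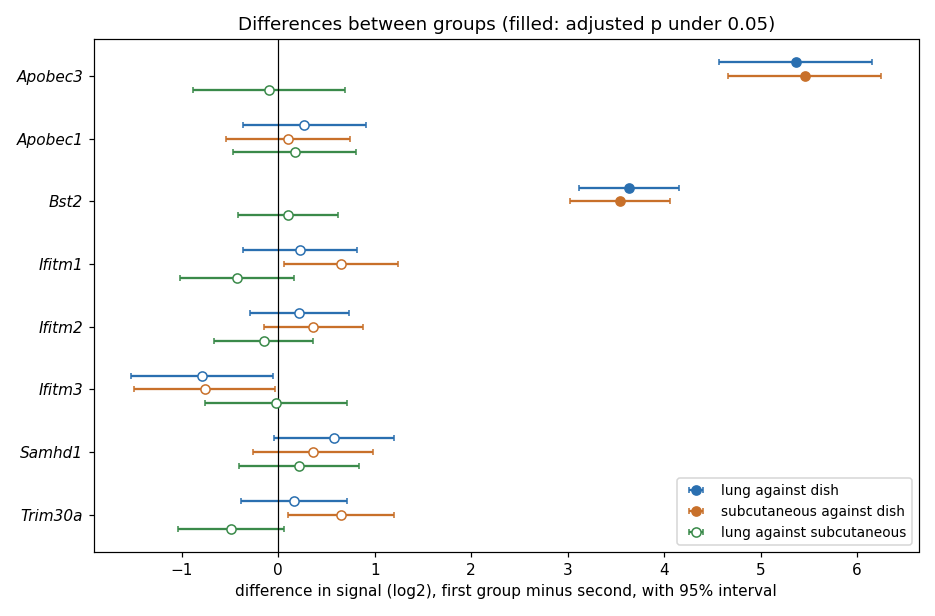
Difference in log2 signal between groups for each member, first group minus second, with its 95% interval from the limma fit; filled dots have an adjusted p under 0.05. Only Apobec3 and Bst2 against the dish are filled, and their lung and subcutaneous values lie close together (5.36 and 5.46 for Apobec3, 3.64 and 3.54 for Bst2).

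Cells of other types in the isolated samples could carry these transcripts, since tetherin and IFITM genes are also expressed in plasmacytoid dendritic cells, macrophages and endothelium. In a bulk sample, fewer cells of a type and less RNA per cell cannot be told apart. Markers of plasmacytoid dendritic cells (0 of 5), neutrophils (0 of 6), B cells (0 of 4) and endothelium (0 of 8) were above background on no array. The pan-leukocyte gene Ptprc lay at 5.26 to 5.70 under the skin and 5.42 to 5.81 in the lung, below background, and below its dish mean of 6.4. Of 14 monocyte and macrophage markers Cd14 was above background on all 9 arrays, Lyz2 on 2 lung arrays and Mrc1 on 1, and the others on none. The summed linear signal of that list was 636 to 845 in the dish, 634 to 911 under the skin and 757 to 2205 in the lung. Of 9 T and NK cell markers, Cd4 was above background on 1 dish array and none was on a transplanted array.

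Fibroblast and alveolar markers did move with the transplanted groups. The summed linear signal of 7 fibroblast markers was 274 to 319 in the dish, 90865 to 155422 under the skin and 1679 to 15981 in the lung, with 0 to 1, 3 and 1 to 2 of the 7 above background. That of 8 alveolar type II markers was 260 to 373, 408 to 621 and 12022 to 89680, with 0 to 1, 1 and 3 to 4 above background. Apobec3 spanned 12.83 to 13.27 over the lung arrays, on which the alveolar sum spanned 12022 to 89680, and 13.07 to 13.21 over the subcutaneous arrays. Bst2 spanned 15.54 to 15.94 over the lung arrays and 15.53 to 15.66 over the subcutaneous arrays. Whether these marker signals came from other cells or from the tumour line was not tested, nor was a part of other cells in the rises. As for the tumour line itself, the keratin Krt8 was above background on all 9 arrays, Krt18 on 0 of 3 dish, 3 of 3 subcutaneous and 2 of 3 lung arrays, and Epcam and Cdh1 on none, so the epithelial adhesion genes gave no check of the carcinoma label. The array weights that limma estimates were lowest for lung replicate 3 (0.62) and highest for lung replicate 1 (2.61). Without lung replicate 3 Apobec3 rose by 5.47 and Bst2 by 3.71 against the dish.

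The wider antiviral program was read from 6 lists with 70 measured genes, of which 23 were above background on any array. In the lung against the dish 5 of the 70 rose and 0 fell, beside 4.81% and 1.97% of all genes, with a median of 0.21. Under the skin 13 rose and 0 fell, beside 6.41% and 6.47% of all genes, with a median of 0.27. Between lung and subcutaneous samples 3 were higher and 4 lower in the lung, beside 9.21% and 5.79% of all genes, with a median of -0.06. After upper quartile scaling 1 was higher and 9 lower in lung than in subcutaneous samples, beside 1124 higher and 2936 lower of all 19505 genes. With that scaling 4 rose and 3 fell in the lung against the dish, beside 565 and 1787 of all genes. With RNA integrity as a covariate 6 of the 70 were called under the skin, beside 1280 of all genes. With array weights 16 rose and 2 fell in the lung against the dish, beside 1934 and 1105 of all genes.

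Among the relatives of the members, 0 of 4 other deaminase genes and 0 of 3 other Ifitm genes were called in any comparison. Of all genes 6.78% to 15% were called. Only 2 of these 4 deaminase genes and 0 of the 3 Ifitm genes were above background on any array. Of 7 Trim relatives, Trim30d and Trim56 rose under the skin against the dish (1.74 and 1.1, limma adjusted p = 0.00822 and 0.0198). Trim30d was lower in lung than in subcutaneous samples (-1.29, limma adjusted p = 0.0369). Trim56 lost its call with RNA integrity as a covariate or without dish replicate 1 or 2 or subcutaneous replicate 2 or 3, and the lung difference of Trim30d lost its call in a fit of only the lung and subcutaneous arrays, or without dish replicate 2 or 3, subcutaneous replicate 1 or 2, or lung replicate 1. Trim30d, unlike Trim30a, was above background on all 9 arrays, but such close copies may share signal.

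Of 29 other antiviral effectors only 5 were above background on any array. The largest difference among them was that of Serinc3, a membrane protein that lowers the infectivity of retrovirus particles. Serinc3 was at 13.54, 13.14 and 13.47 in the dish, at 17.26, 17.24 and 17.54 under the skin and at 13.86, 14.81 and 14.36 in the lung. It rose by 3.96 under the skin against the dish (SE 0.27, limma adjusted p = 2.61e-06) and was lower in lung than in subcutaneous samples (-3.0, limma adjusted p = 5.51e-05). The lung samples lay above the dish samples without a call (0.96, limma adjusted p = 0.0510). That difference passed after the filter on dim genes, with an intensity trend and robust fit and with low signals set to background. It also passed with array weights and without lung replicate 1. The pattern of Serinc3 thus differed from that of Apobec3 and Bst2, which had no call between lung and subcutaneous samples.

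The RNA-binding antiviral protein ZAP, encoded by Zc3hav1, and the helicase gene Mov10 also rose under the skin (1.07 and 1.30, limma adjusted p = 0.0262 and 0.0123). Zc3hav1 fell in the lung against the skin (-1.25, limma adjusted p = 0.0117). The call of Zc3hav1 against the dish was lost with RNA integrity as a covariate or without dish replicate 3 or subcutaneous replicate 2 or 3, that against the lung without lung replicate 1, and that of Mov10 with the covariate or without dish replicate 3. The interferon-induced GTPase gene Igtp rose under the skin (1.52) and Isg15 was higher in lung than in subcutaneous samples (0.89), both under background on all arrays. The call of Igtp was lost with low signals set to background. The call of Isg15 was lost with that setting, after upper quartile scaling, with RNA integrity as a covariate and in a fit of only the lung and subcutaneous arrays. It was kept on leaving out subcutaneous replicate 3 or lung replicate 2 and lost on leaving out any other array.

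The interferon-induced genes Mx1, Ifit1 and Rsad2, named after their values were seen, were under background on all 9 arrays. The GTPase gene Mx1 was at 4.37 ± 0.31 in the dish, 4.40 ± 0.55 under the skin and 4.43 ± 0.31 in the lung (SD, n = 3). Ifit1 was at 4.84 ± 0.40, 5.19 ± 0.20 and 4.49 ± 0.03, and viperin, Rsad2, at 3.02 ± 0.03, 2.95 ± 0.39 and 3.20 ± 0.29. At signals under background a low level of these transcripts cannot be told from none. Mx1, Ifit1 and Rsad2 do not stand for all 29 other antiviral effectors. Irgm1 had no call under the skin against the dish (limma adjusted p = 0.0503) but passed under 5 settings. In the lung against the dish Igtp, Isg15, Mx2 and Gbp2 had no call (limma adjusted p = 0.0508, 0.0562, 0.0605 and 0.0723). They passed there under 6, 3, 3 and 1 of the settings.

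**Figure D3:**
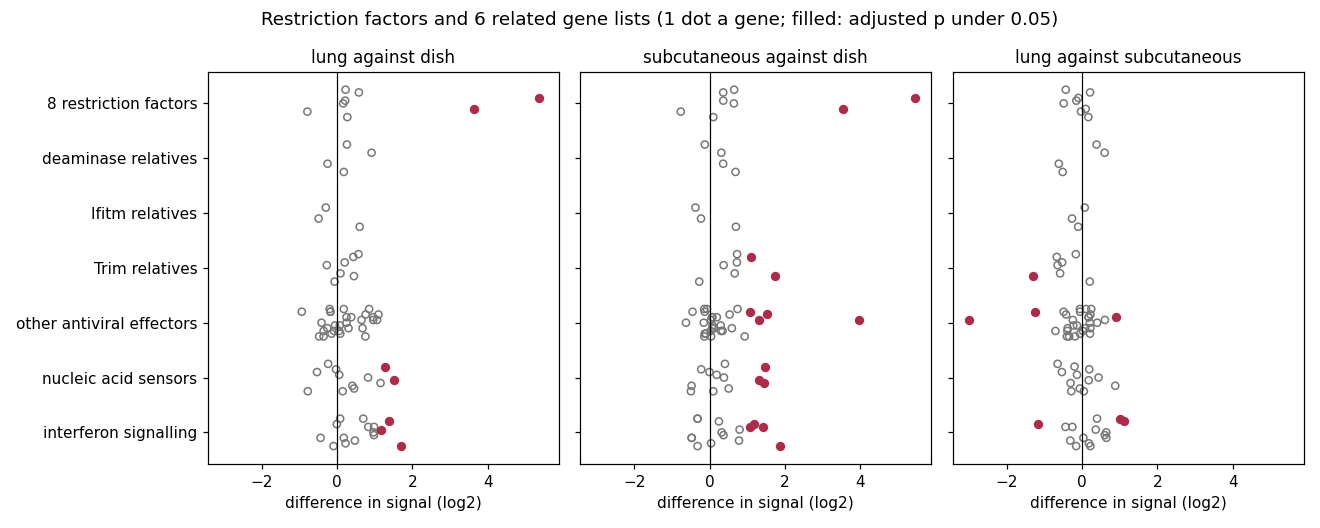
Difference in log2 signal for each gene of the 8 restriction factors and of 6 related lists in the 3 comparisons, with 1 dot per gene and filled dots for an adjusted p under 0.05. Against the dish Apobec3, Bst2 and, under the skin, Serinc3 (3.96) lie furthest right, and most list genes lie near 0.

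Upstream of these effectors, 4 of 12 nucleic acid sensor genes and 9 of 15 interferon signalling genes were above background on any array. The cytosolic DNA sensing adaptor Sting1 rose in the lung (1.27, limma adjusted p = 0.0441) and under the skin (1.47, limma adjusted p = 0.0129) against the dish. The lung call of Sting1 was lost after quantile normalization or upper quartile scaling or without any 1 dish or lung array, and the skin call without dish replicate 3 or subcutaneous replicate 1. The RNA sensor RIG-I, Ddx58, rose under the skin (1.46, limma adjusted p = 0.00916; 0.0583 with RNA integrity as a covariate), and its lung difference of 1.15 missed the threshold (limma adjusted p = 0.05001) but passed after the filter on dim genes, with low signals set to background, with array weights and without lung replicate 3. The endosomal DNA sensor gene Tlr9 was called against the dish in both groups but was under background on all arrays, and lost both calls with low signals set to background.

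The interferon receptor subunit gene Ifnar1 rose by 1.71 in the lung and by 1.86 under the skin against the dish (limma adjusted p = 0.00624 and 0.00143). It was under background in the dish, so the size of these differences is uncertain. Taken from the dish background level they were 0.39 and 0.54, and with signals under background set to it they were not called. Irf3, the transcription factor that acts below these sensors, was at 8.11 ± 0.12 in the dish, 8.36 ± 0.24 under the skin and 9.49 ± 0.28 in the lung (SD, n = 3). It rose in the lung against the dish (1.38, limma adjusted p = 0.0052) and against the skin (1.13, limma adjusted p = 0.0076). Interferon beta itself, Ifnb1, was under background on all arrays (means 4.70, 4.22 and 4.26). So were the interferon regulatory factor genes Irf7 and Irf9, and all of these were named after their values were seen. Irf7 had a difference between lung and dish without a call (limma adjusted p = 0.0670), which passed under 3 settings. Over the 15 interferon signalling genes 3 rose and 0 fell in the lung against the dish, with a median of 0.69. The shares of all genes were 4.81% and 1.97%, with a median of -0.07. Under the skin 4 rose and 0 fell, with a median of 0.32, beside 6.41% and 6.47% of all genes and a median of -0.01.

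Other calls in the signalling list were the kinase gene Jak1, higher under the skin than in the dish (1.17, limma adjusted p = 0.0161) and than in the lung (lung minus subcutaneous -1.18, limma adjusted p = 0.0152), the transcription factor gene Stat2 under the skin (1.42, limma adjusted p = 0.0370), the interferon-gamma receptor gene Ifngr2 in the lung against the dish (1.16, limma adjusted p = 0.0164) and Usp18 in the lung against the skin (1.01, under background on all arrays). The calls of Jak1 were lost without subcutaneous replicate 1, and that against the dish also with RNA integrity as a covariate or without dish replicate 2 or 3. Stat2, under background in the dish, lost its call with that covariate, in a fit of only the dish and subcutaneous arrays, or without dish replicate 1 or 2, subcutaneous replicate 1 or 2 or lung replicate 1. Ifngr2 lost its call after quantile normalization or without dish replicate 2 or 3 or lung replicate 2. Usp18 lost its call after upper quartile scaling, with low signals set to background, or without subcutaneous replicate 2 or lung replicate 1 or 3.

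The genes whose pattern was nearest to that of Apobec3 and of Bst2 were sought by the root mean square difference between log2 profiles over the 9 arrays, each centred on its own mean, among the 6666 other genes above background on at least 3 arrays. The points share the same libraries, so the distance is a description. Nearest to Apobec3 were the small LIM protein gene Crip1 (0.57), Bst2 (0.92), Cdk2ap2 (0.94), the zinc transporter gene Slc39a10 (1.01) and the AP-1 gene Fosb (1.02). Crip1 was at 6.69 ± 0.37 in the dish (under background), 12.05 ± 0.22 under the skin and 11.42 ± 0.55 in the lung (SD, n = 3). Fosb, also under background in the dish (5.84 ± 0.52), spread widely over the lung arrays (11.92 ± 1.95). Cdk2ap2 was above background on 1 of 3 dish arrays, so the dish levels of Crip1, Fosb and Cdk2ap2 are uncertain. Bst2 was thus in place 2 as seen from Apobec3, while Apobec3 was in place 92 as seen from Bst2.

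Nearest to Bst2 were the adhesion gene L1cam (0.33), Resf1, a gene named for retroelement silencing (0.39), the NF-kB inhibitor gene Nfkbia (0.42), the RNA phosphatase gene Dusp11 (0.46) and Cdk2ap2 (0.48). Resf1 was at 12.98 ± 0.20 in the dish, 16.23 ± 0.14 under the skin and 15.85 ± 0.45 in the lung (SD, n = 3). Nfkbia was at 9.69 ± 0.71, 12.78 ± 0.16 and 12.99 ± 0.75. All of these genes were higher in both transplanted groups than in the dish, which the search itself selects.

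**Figure D4:**
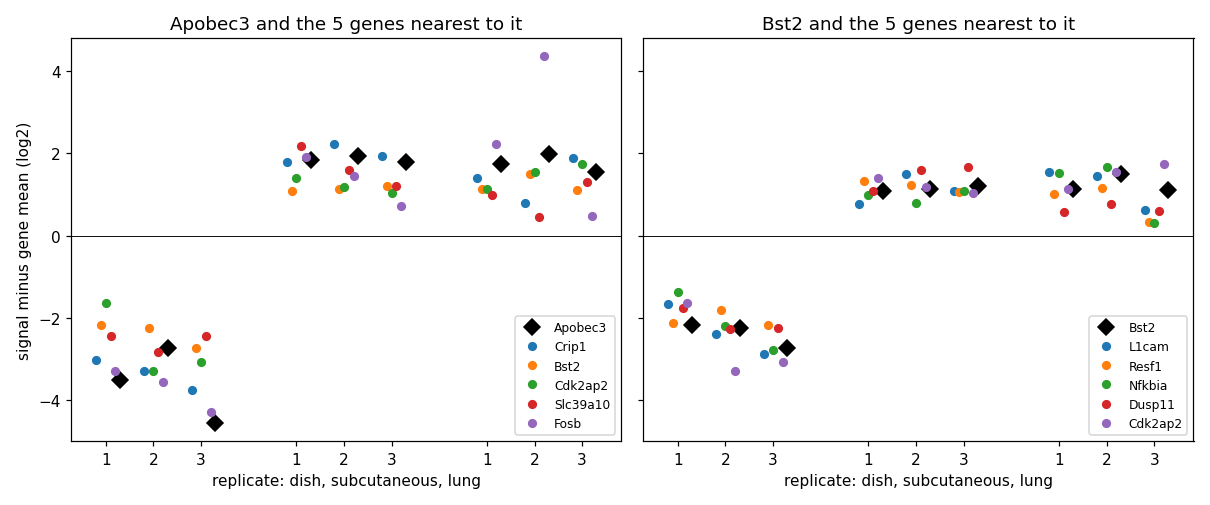
Log2 signal minus the gene's own mean on each of the 9 arrays for Apobec3 (left, black) and Bst2 (right, black) with the 5 genes of the nearest profile. The dish arrays lie below 0 and the transplanted arrays above 0 for each gene, and Fosb on the lung arrays spreads most.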

How the data were processed

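The deposited log2 signals cover 28846 features, with 1 column per array. How they were summarised and normalized, and on which build, is not given in the sources used here. Per the labels, biotin-labelled sense-strand cDNA made from total RNA was hybridised, and the RNA integrity number (RIN) was 7.5 to 8.6. The log2 values were used as deposited. A platform annotation gave 1 symbol to each of 19572 features. For 55 genes with several features the one with the highest mean was kept, leaving 19505 genes.

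limma 3.58.1 in R 4.3.3 fitted 3 group means to all 9 arrays (6 residual and 7.083 prior degrees of freedom), without a filter on level. The two-sided p-values were adjusted by Benjamini-Hochberg over all genes. The procedure was tested on simulated data.

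The members and lists were chosen with earlier results of these data known. The genes named are the 8 members, up to 3 called genes in each direction per list and comparison, and the 5 nearest profiles to Apobec3 and to Bst2. Outside this rule, Mx1, Ifit1, Rsad2, Irgm1, Mx2, Gbp2, Ifnb1, Irf7 and Irf9 were named after their values were seen, and markers were named to check cell types. Of 170 list genes 158 were measured. The 19 alternatives changed the feature rule, scaling, filter, spread model, weights, samples, RIN covariate and pairing, set low signals to background, or left out 1 array.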

Additional observations from a re-analysis of the deposited data

How the results depend on the processing

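Over the alternatives the 8 genes gave 444 values, of which 422 kept their direction and side of the threshold, 3 passed in addition and 19 changed sign; all 19 were uncalled differences near 0, and the cause was not tested. Scaling to a common upper quartile shifted the median of all genes by -0.34 between lung and dish, -0.31 between lung and skin and -0.03 between skin and dish. It turned Apobec1 (-0.14), Bst2 (-0.21) and Samhd1 (-0.092) in lung against subcutaneous samples and Apobec1 (-0.067), Ifitm1 (-0.11), Ifitm2 (-0.12) and Trim30a (-0.18) in lung against dish samples. Quantile normalization turned Samhd1 in lung against subcutaneous (-0.071) and Ifitm1 in lung against dish samples (-0.0015), array weights turned Ifitm3 in lung against subcutaneous (0.15), the RIN covariate Apobec1 in subcutaneous against dish (-0.11) and setting low signals to background Ifitm1 in lung against dish samples (-0.13). With that setting Apobec1 and Trim30a give no value. With 1 array left out, lung against subcutaneous ran from -0.21 to 0.0097 for Apobec3, -0.12 to 0.49 for Apobec1, -0.030 to 0.17 for Bst2, -0.23 to 0.19 for Ifitm3 and -0.11 to 0.48 for Samhd1, and subcutaneous against dish from -0.22 to 0.39 for Apobec1.

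The count of members called was 0 in lung against subcutaneous samples, 2 in lung against dish samples and 2 in subcutaneous against dish samples (the order used below), and 2 to 3 in the last with 1 array left out (3 without dish replicate 3, where Ifitm3 is added, and without subcutaneous replicate 2, where Trim30a is). Over all genes 2927, 1322 and 2513 were called. With 1 array left out the counts ran from 1476 to 2928, 514 to 1442 and 1639 to 2738, moving by over 1.5 times without lung replicate 1 or 2 in the first, without these or dish replicate 2 or 3 in the second and without dish replicate 2 in the third. In lung against dish samples 2352 genes were called after upper quartile scaling (565 higher and 1787 lower, against 938 and 384), 3039 with array weights and 856 with the RIN covariate, which gave 1280 in subcutaneous against dish samples. In lung against subcutaneous samples that scaling gave 1124 higher and 2936 lower (against 1797 and 1130) and quantile normalization 1454 and 1232; in lung against dish samples quantile normalization gave 667 and 551. Of the 70 antiviral and interferon genes 7, 5 and 13 were called. With 1 array left out these were 4 to 7 (4 without subcutaneous replicate 2 or lung replicate 1), 3 to 6 (3 without dish replicate 2 or 3) and 9 to 14. In lung against dish samples the count was 10 with the filter on dim genes, 9 with an intensity trend and robust fit, 8 with low signals set to background and 18 with array weights, and in subcutaneous against dish samples 6 with the RIN covariate.

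The replicate numbers share no stated origin, and same-numbered samples did not deviate together (correlations -0.06 to 0.09 across genes). With the replicate block 2852, 1313 and 2475 genes and 0, 2 and 2 members were called, and of the antiviral and interferon genes 5, 6 and 13. The block ended the calls of Trim30d and Isg15 in lung against subcutaneous and of Sting1 in lung against dish samples, and gave calls to Ddx58, Igtp and Uhrf1 in the latter. Signals under background limit what can be read for Apobec1, Trim30a and Ifitm1.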

Other observations

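A list of 13 genes that silence retroelements through chromatin, 9 of them above background on some array, ran differently from Apobec3 and Bst2. Under the skin 0 rose and 4 fell against the dish, with a median of -0.55, beside 6.41% and 6.47% of all genes. Trim28, the corepressor that silences endogenous retroviruses, fell (-2.14, limma adjusted p = 7.99e-05), and Uhrf1, which guides maintenance DNA methylation, fell too (-2.02, limma adjusted p = 0.000838). In the lung against the skin 6 of the 13 were higher and 0 lower, beside 9.21% and 5.79% of all genes. The median was 0.91, beside -0.07 over all genes. In a fit of only the 6667 genes above background on at least 3 arrays, 1757 were higher and 889 lower, a larger share. The 6 include the maintenance methyltransferase gene Dnmt1 (2.09, limma adjusted p = 0.00357), whose lung values spread widely (10.87 ± 1.02, SD, n = 3), and Trim28 (1.51, limma adjusted p = 0.00125). In the lung against the dish 2 rose and 1 fell, with a median of 0.00218, beside 4.81% and 1.97% of all genes.

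Of 9 genes that supply deoxynucleotides, the substrates of the Samhd1 enzyme, 2 fell and 0 rose under the skin against the dish, beside 6.47% and 6.41% of all genes. They were Rrm1 (-1.64, limma adjusted p = 0.00518) and Rrm2 (-1.44, limma adjusted p = 0.00151), which encode the subunits of ribonucleotide reductase. Rrm1 lost its call with RNA integrity as a covariate (limma adjusted p = 0.0786). In the lung against the skin Dctd, a deoxycytidylate deaminase, was higher (1.58, limma adjusted p = 0.00228) and the other 8 were not called, beside 15% of all genes called. By limma 0 of the 9 were called in the lung against the dish, with 4 at an unadjusted p under 0.05, beside 6.78% of all genes called and 4271 of 19505 at that unadjusted p. Samhd1 itself had no call in any of the 3 comparisons.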
